A study of Mus musculus with 12 samples.

Results

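The mitochondrial ribosomal proteins are the protein parts of the ribosome that works inside mitochondria, and their genes carry the symbols Mrpl (large subunit) or Mrps (small subunit) followed by a number. Members were all platform genes with such a symbol, and a member was kept where at least 1 of its probes had a detection p under 0.05 on 6 or more of the 12 arrays. The platform names 76 such genes with 132 probes, 48 of them Mrpl and 28 Mrps. Of these, 72 genes (45 Mrpl and 27 Mrps, with 108 probes) passed, out of 9034 named genes and 15570 probes that passed in the whole series. The members not passing were Mrpl19, Mrpl32, Mrpl45 and Mrps14. Mrpl19 was detected on at most 2 arrays and the other 3 on 0. Mrpl45, which sits where the growing peptide leaves the ribosome next to the inner membrane, therefore has no level here, and Mrpl41 and Mrps36 were not analysed here.

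Gastrocnemius, the large calf muscle, was taken from 12 male C57BL/6J mice, and total RNA of each mouse was hybridized to 1 Illumina MouseWG-6 v2 array. The sample titles name 6 mice TOL (heat tolerant) and 6 mice INT (heat intolerant). Both groups were aged 10 to 12 weeks at a weight of 22 to 26 g, and both went through the same heat test, in a chamber at 39.5°C for at most 3 h, with muscle taken the next day. The labels rank the mice by their body temperature in that test, so there is no unheated group, and mice of intermediate tolerance were not on the arrays. A description label calls all 12 samples heat intolerant, and the groups were taken from the titles.

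Mitochondria keep a ribosome of their own that translates the few mRNAs of mitochondrial DNA, all of which encode subunits of the oxidative phosphorylation complexes. All of its proteins are encoded in the nucleus, made in the cytosol and imported, and they assemble there with the mitochondrial rRNAs. Some have counterparts in the bacterial ribosome and others exist only in mitochondria. Skeletal muscle depends on this machinery for its supply of respiratory chain subunits.

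Between 15179 and 16769 probes were detected in TOL mice and between 15337 and 17017 in INT mice. TOL 11 had the fewest. It also had the lowest mean correlation with the other arrays (0.973), where the rest were at 0.981 to 0.987. The highest raw signal on an array was 14644.5 to 15962.6 in TOL mice and 16465.3 to 18956.7 in INT mice, ranges that did not overlap before normalization. The median raw signal of the member probes was 265.65 to 317.6 in TOL mice and 283.05 to 339.2 in INT mice. The part of this difference in the results was not tested. Which chip held which mouse was not given in the sources used here, so a difference between chips could not be told apart from the labels. Fast muscle markers passed for 7 of 7 genes, and their summed level was 62474 to 66348 in TOL mice and 59519 to 65319 in INT mice, as linear normalized intensity. After normalization, which is described with the methods, all levels are log2 intensities, and a fold change is the TOL mean minus the INT mean. Each value with ± is a mean and SD over 6 mice.

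The promoters of these genes are shown because the letters searched are motifs of factors known to drive nuclear genes for mitochondrial proteins. RefSeq (build GRCm38.p6) gave a window of 300 bases, 250 before and 50 after the gene start, for 64 of the 72 members and for 27025 genes in all. Each motif was searched on both strands, and an ETS and a YY1 match can overlap, since both hold AAG. The ETS motif CCGGAAG, the core bound by NRF-2 (GABP), stood in 26 member windows (40.6%), against 9.93% of all windows. The NRF1 motif, GCGCA and GCGC with 1 base of any kind between, stood in 11 (17.2%), against 5.19% of all, and the YY1 motif AAGATGGCG in 8 (12.5%), against 1.64% of all. At least 1 of these 3 was in 39 member windows (60.9%) and in 15.1% of all. The ERR motif TCAAGGTCA and the heat shock element (GAA, TTC and GAA, each 2 bases apart) were in 0 of the 64, against 0.466% and 0.662% of all windows. The median GC content was 58.2% in member windows and 52.75% in all windows. A match is a description of the letters and not a measured site.

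The share of windows with each motif was also counted by subunit. The ETS motif was in 15 of 40 Mrpl windows (37.5%) and 11 of 24 Mrps windows (45.8%), and the NRF1 motif in 8 (20%) and 3 (12.5%). In 24 of the 64 (37.5%) another gene started on the opposite strand within 1000 bases, against 12.2% of all genes. The 120 bases before the gene start are printed for 3 members with motif matches: Mrpl12, the flexible stalk protein, Mrpl52, which had the smallest p of all members, and Mrps22, a mitochondria-specific small subunit protein. The positions are chr11:120484517-120484636 on the plus strand for Mrpl12, chr14:54426789-54426908 on the plus strand for Mrpl52 and chr9:98601680-98601799 on the minus strand for Mrps22. Capitals mark the NRF1 match in Mrpl12 and the ETS match in the other two. The matches in Mrpl12 and Mrpl52 are read on the opposite strand.
Mrpl12: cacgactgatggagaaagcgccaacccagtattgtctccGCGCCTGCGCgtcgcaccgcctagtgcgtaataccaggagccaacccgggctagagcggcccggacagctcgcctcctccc
Mrpl52: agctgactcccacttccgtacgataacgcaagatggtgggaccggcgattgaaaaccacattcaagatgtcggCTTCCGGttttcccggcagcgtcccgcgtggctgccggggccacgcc
Mrps22: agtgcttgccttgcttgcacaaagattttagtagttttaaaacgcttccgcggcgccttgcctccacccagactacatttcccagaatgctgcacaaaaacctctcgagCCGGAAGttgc

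Mitochondrial ribosomal protein genes had nearly the same mRNA level in TOL and INT muscle. None of the 72 passed an adjusted p under 0.05 in limma, where 0.542% of all genes did (49 of 9034, with 0.0221% higher and 0.52% lower in TOL mice), and the smallest adjusted p of a member was 0.189. With an unadjusted p of 0.05 or less, 5 of 72 members (6.94%) passed in limma, against 8.41% of all genes (3.89% higher and 4.53% lower in TOL mice). Of these 5, Mrpl52, Mrpl16, Mrps18c and Mrps6 were higher in TOL mice and Mrpl47 was lower. The methods' t-test also gave 5 (3 higher and 2 lower), with Mrpl46, lower in TOL mice, in place of Mrps6. With each array scaled to its median in place of quantile normalization, the median over all genes was -0.08, and 7 of 72 members (9.72%) passed before adjustment, against 11.7% of all genes. Of these, 1 was higher (Mrpl52) and 6 lower (Mrpl46, Mrpl47, Mrps17, Mrps22, Mrps31 and Mrps34), where 1.05% of all genes were higher and 10.7% lower. No member had groups that did not overlap, which 0.708% of all genes had.

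Across all members, 40 averaged higher in TOL mice and 32 averaged lower, where 48.9% of all genes averaged higher. The median log2 fold change was 0.016 over the 45 Mrpl genes and 0.0034 over the 27 Mrps genes, beside -0.0034 over all genes. The differences ran between -0.24 (Mrpl47) and 0.52 (Mrps6). The 95% interval of the difference lay within 0.5 log2 on either side of 0 for 69 of the 72 genes. The exceptions were Mrpl52, Mrps15 and Mrps6. The median SD within groups was 0.168 for members and 0.173 for all genes. In this bulk tissue, fewer cells of a type and less RNA per cell cannot be told apart.

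**Figure D1:**
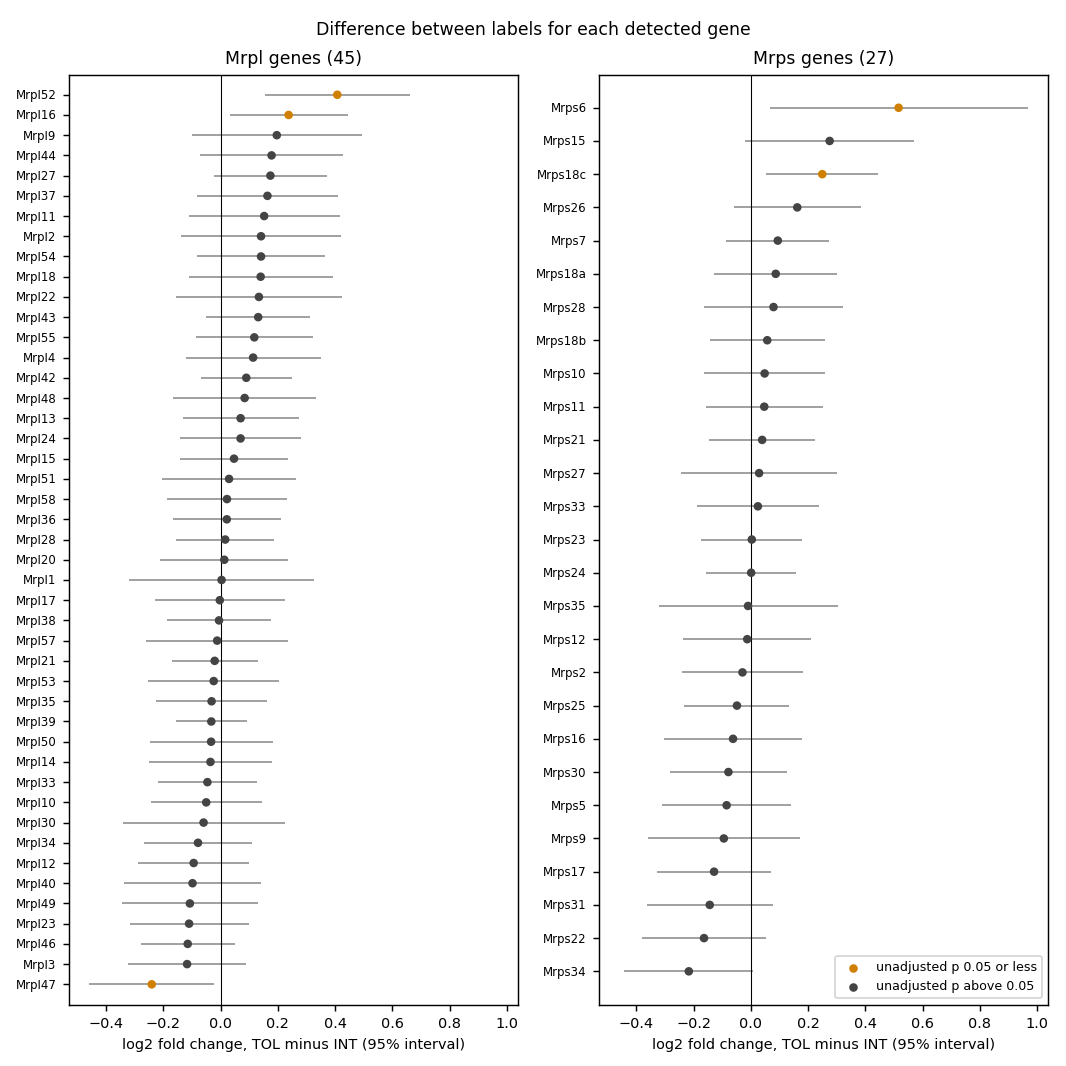
Log2 fold change (TOL minus INT, points) with its 95% interval (lines) for the 45 Mrpl genes and the 27 Mrps genes, sorted by value, with genes at an unadjusted p of 0.05 or less in orange. All intervals but those of the 5 orange genes cross 0, and these genes run between -0.24 for Mrpl47 and 0.52 for Mrps6.

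Splitting the members by where the protein sits or by descent gave medians just as close to 0. Mrps30 and Mrps18a are built into the large subunit despite their symbols, which makes 47 proteins of the large and 25 of the small subunit, with medians of 0.016 and 0.0034. The 43 members with a bacterial counterpart had a median of 0.016 and the 29 found only in mitochondria had 0.0034. Before adjustment, 4 of the first (9.30%) and 1 of the second (3.45%) passed in limma, against 8.41% of all genes.

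Mrpl52, a large subunit protein found only in mitochondria, had the smallest p of the members. Its log2 intensity was lowest at 7.10, median 7.34 and highest at 7.66 in TOL mice, and lowest at 6.75, median 6.93 and highest at 7.31 in INT mice. All 6 TOL mice lay above the INT mean, 3 lay above every INT mouse, and INT 3 was the only INT mouse above the lowest TOL mouse. The means were 7.37 ± 0.21 in TOL mice and 6.96 ± 0.21 in INT mice, a difference of 0.41 with a standard error of 0.12 (unadjusted p = 0.00346, adjusted p = 0.189 in limma, and exact permutation p = 0.0108). The gene lies at chr14:54426909-54429750 (GRCm38.p6), and its promoter is printed above.

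Mrpl16, the counterpart of a bacterial protein beside the peptidyl transferase centre, was between 6.93 and 7.36 in TOL mice (median 7.17) and between 6.78 and 7.09 in INT mice (median 6.87). All 6 TOL mice were above the INT mean and 4 were above every INT mouse. The difference was 0.24 with a standard error of 0.10 (unadjusted p = 0.0261, adjusted p = 0.418 in limma). It did not pass before adjustment without TOL 9 (0.20), without TOL 11 (0.22), without INT 3 (0.21), without INT 11 (0.22) or with array weights (0.19).

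Mrps18c, 1 of the mammalian copies of a bacterial small subunit protein, reached 7.37 in TOL mice (median 7.16, and 7.09 or more in all but TOL 4) and was between 6.79 and 7.12 in INT mice (median 6.91). All 6 TOL mice were above the INT mean and 4 above every INT mouse. The difference was 0.25 with a standard error of 0.09 (unadjusted p = 0.0156, adjusted p = 0.358 in limma). Under median scaling Mrps18c was at 0.14 and Mrpl16 at 0.13, both with an unadjusted p above 0.05, and so was Mrps6 at 0.42. Mrps18a, a paralogue of it in the large subunit, was at 9.07 ± 0.20 in TOL mice and 8.98 ± 0.12 in INT mice, and its difference of 0.09 was -0.03 under median scaling. The probes of such paralogues are named by the platform annotation, and cross-hybridization between them was not tested.

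Mrps6, the counterpart of a bacterial small subunit protein, had the widest spread of all members, with a within-group SD of 0.449. It was lowest at 6.41, median 6.73 and highest at 7.91 in TOL mice, against 6.35, 6.41 and 6.60 in INT mice. TOL 11 (7.91), TOL 9 (7.50) and TOL 4 (6.95) stood above every INT mouse, and the other TOL mice lay within the INT range. The difference of 0.52 had a standard error of 0.21 (unadjusted p = 0.0272, adjusted p = 0.424 in limma, and exact permutation p = 0.0779). Without TOL 11 it was 0.32 and without TOL 9 it was 0.41, and in neither case was the unadjusted p 0.05 or less. With array weights, which were lowest for TOL 11 (0.50), the difference was 0.40 and passed before adjustment. The Mrps6 gene overlaps Slc5a3, a myo-inositol transporter gene, whose 1 probe was detected on 0 arrays.

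Mrpl47, at the tunnel exit of the large subunit, was the 1 member of the 5 with a lower TOL mean. It was between 7.62 and 8.01 in TOL mice (median 7.83) and between 7.86 and 8.37 in INT mice (median 8.03). All 6 TOL mice were below the INT mean and 3 were below every INT mouse. The difference was -0.24 with a standard error of 0.10 (unadjusted p = 0.0323, adjusted p = 0.451 in limma). It did not pass before adjustment without TOL 9 (-0.20), TOL 11 (-0.21), INT 4 (-0.23) or INT 5 (-0.18), or with no detection filter (-0.24). Ndufb5, a complex I subunit gene, starts on the opposite strand within 1000 bases of it, and it averaged 8.06 in TOL mice and 8.11 in INT mice and differed by -0.06 (adjusted p = 0.899 in limma). Mrps34, a mitochondria-specific small subunit protein, averaged lower in TOL mice without passing, at 10.09 ± 0.16 in TOL mice and 10.31 ± 0.22 in INT mice, a difference of -0.22 (unadjusted p = 0.0582, adjusted p = 0.532 in limma). All 6 TOL mice lay below its INT mean. It passed before adjustment under median scaling (-0.30) and without TOL 3 (-0.25), TOL 7 (-0.25) or INT 7 (-0.28).

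**Figure D2:**
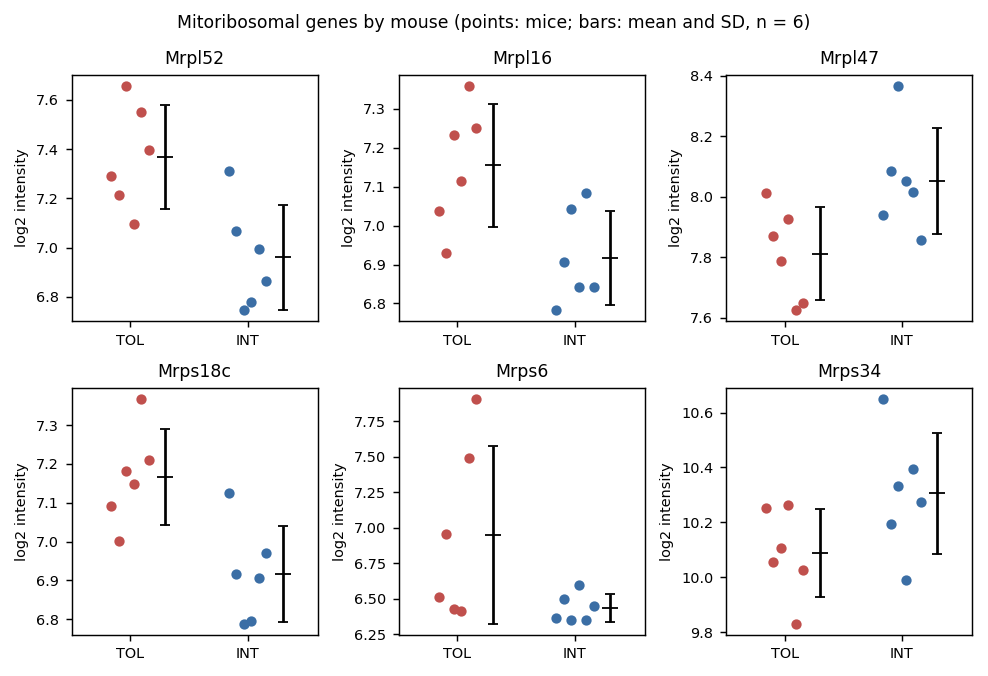
Log2 intensity of 6 members by mouse (points), with TOL mice left of INT mice and the mean and SD as bars (n = 6 in each group, each panel on its own scale). All 6 TOL mice of Mrpl52, Mrpl16 and Mrps18c lie above the INT mean, and the Mrps6 values of TOL 9 and TOL 11 stand above the rest.

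Members with other roles in the machinery did not pass before or after adjustment with quantile normalization. In the stalk that recruits translation factors, Mrpl12 was at 9.76 ± 0.13 in TOL mice and 9.85 ± 0.16 in INT mice (difference -0.09, 95% interval -0.29 to 0.10). Of its partners at the stalk base, Mrpl10 differed by -0.05 and Mrpl11 by 0.15, with 95% intervals of -0.24 to 0.14 and -0.11 to 0.42. Mrpl12 has the NRF1 motif of the printed promoter. Mrpl44, which belongs to the large subunit and carries an RNase III-like fold, averaged 7.04 ± 0.18 in TOL mice and 6.86 ± 0.23 in INT mice. It differed by 0.18, with 6 of 6 TOL mice above the INT mean and an adjusted p of 0.676 in limma. Mrpl33, the counterpart of a small bacterial large subunit protein, differed by -0.05. On the small subunit, Mrps12, the counterpart of a protein of the decoding centre, was at 9.86 ± 0.21 in TOL mice and 9.88 ± 0.17 in INT mice (difference -0.01, 95% interval -0.24 to 0.21). Mrps22, which is found only in mitochondria and whose promoter is printed, differed by -0.16, with all 6 TOL mice below the INT mean (adjusted p = 0.653 in limma), and it passed before adjustment under median scaling (-0.28, adjusted p = 0.365). The Mrps28 difference was 0.08 and that of Mrps27, a protein with pentatricopeptide repeats, was 0.03, and both were below 0 under median scaling (-0.03 and -0.06).

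The members with the widest spread between mice of 1 label were taken from each subunit, Mrps6 among them. The within-group SD was 0.302 for Mrpl1, 0.270 for Mrpl9, 0.265 for Mrpl30 and Mrps15 and 0.288 for Mrps35. Mrps15, a counterpart of a bacterial small subunit protein, was at 5.75 ± 0.36 in TOL mice and 5.47 ± 0.11 in INT mice, and like Mrps6 it was highest in TOL 9 (6.18) and TOL 11 (6.10). Its difference of 0.28 had an adjusted p of 0.551 in limma. It passed before adjustment without TOL 3 (0.33), TOL 4 (0.32) or TOL 7 (0.37), or with no detection filter. The difference of Mrps35 was -0.01 and that of Mrpl1 0.0034, and those signs turned when single mice were left out. Mrpl9 differed by 0.20 (0.29 without TOL 5, where it passed before adjustment) and Mrpl30 by -0.06. The remaining genes named by the rule, Mrpl27 (0.17), Mrpl43 (0.13), Mrps26 (0.16) and Mrps30 (-0.08), had adjusted p-values of 0.588 to 0.841 in limma. Mrpl27 passed before adjustment without TOL 5 (0.22), and Mrps26 did with the mean over its probes (0.20). Mrpl27 shares its position with Eme1, Mrpl43 with Twnk and Mrpl44 with Wdfy1, and in all 19 of 72 member genes overlap another protein-coding gene. Which transcript a probe of such a gene reports was not tested.

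**Figure D3:**
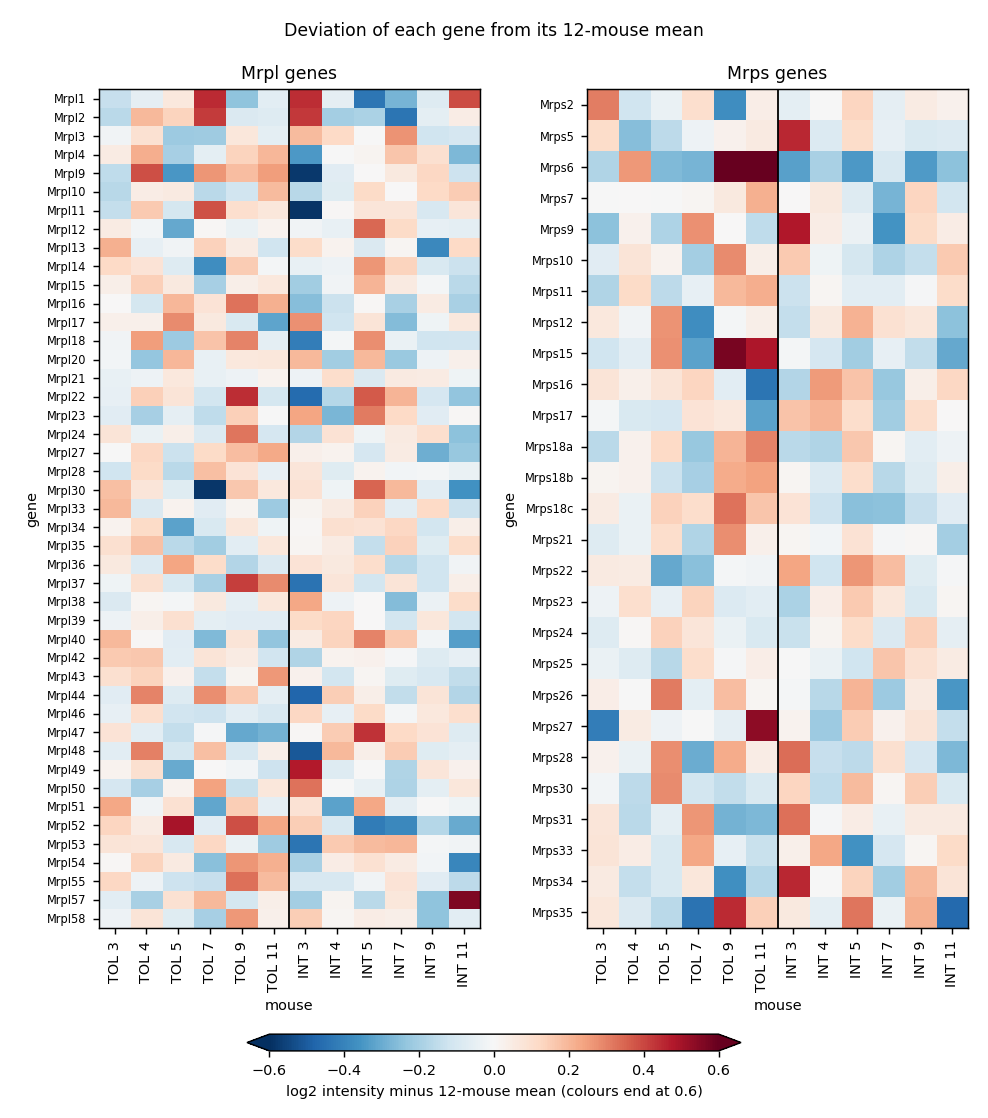
Log2 intensity minus the mean over 12 mice for each of the 72 genes, with Mrpl genes on the left and Mrps genes on the right, TOL mice left of the line and INT mice right of it, and colours ending at 0.6. The block of red at Mrps6 lies in TOL 9 and TOL 11, and no row changes colour at the line without exceptions.

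Both subunits stayed at nearly the same level in every mouse. The level of a subunit in a mouse was taken as the median of its genes' deviations from their means over 12 mice. For the Mrpl genes it was -0.065 to 0.074 in TOL mice (median 0.00059) and -0.059 to 0.047 in INT mice (median 0.0048). For the Mrps genes it was -0.038 to 0.034 in TOL mice (median -0.0013) and -0.055 to 0.107 in INT mice (median -0.0071), with INT 5 highest. These ranges overlapped throughout. Over all genes this median was -0.028 to 0.012 in TOL mice and -0.013 to 0.026 in INT mice, a narrower range. Of the 45 Mrpl genes, 19 to 30 were above their mean in each TOL mouse and 12 to 31 in each INT mouse, with INT 9 at 12 and INT 5 at 31. Of all genes, 49.4% were above their mean in INT 9 and 50.2% in INT 5. The extreme values were spread unevenly over the mice. TOL 9 was the highest of the 12 for 13 members. INT 3 was the highest for 10 and the lowest for 15, which is 17.4% of all extremes, against 12.5% over all genes. Over all genes TOL 11 held the most extremes (15.6%), against 9.03% of the extremes of members.

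Genes with more than 1 tested probe gave a check on the brightest probe used for each gene. Of 25 such members, 8 had probes with differences of both signs. The 36 dimmer probes had a median difference of 0.091. Of them, 27 (75%) averaged higher in TOL mice, where 54.7% of all dimmer probes did. Before adjustment, 5 were higher and 0 lower in limma, a share of 13.9%, against 11.8% of all dimmer probes in both directions. The 5 dimmer probes belong to Mrpl37 (0.23), Mrpl49 (0.25 and 0.23), Mrps25 (0.21) and Mrps26 (0.23), and none had an adjusted p under 0.05. Those of Mrpl49 and Mrps25 lay near background, with group medians of raw signal of 79.35 to 85.75. The median raw signal of a whole array was 71.5 to 74 in TOL mice and 72.9 to 73.8 in INT mice. Counted by probe and with the brightest ones, 10 of the 108 member probes passed before adjustment, where 9.91% of all probes did (4.61% higher in TOL mice). Of the 10, 4 brightest and 5 dimmer probes were higher in TOL mice, and 1 brightest probe (Mrpl47) was lower. The brightest probe of Mrpl49 was at 6.93 in TOL mice and 7.04 in INT mice, a difference of -0.11, and that of Mrps25 at 5.68 in TOL mice and 5.73 in INT mice, a difference of -0.05, so probes of both genes disagreed in sign. Mrpl49 overlaps Syvn1 and Mrps25 overlaps Nr2c2. Just inside the detection rule stood Mrpl39, found on 2 TOL and 4 INT arrays with a difference of -0.03, and a dim Mrpl1 probe found on 3 TOL and 3 INT arrays (-0.09). The closest probe outside it was a Mrpl47 probe found on 3 arrays.

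In the lists of other genes for mitochondrial protein synthesis, no gene passed an adjusted p under 0.05 in limma. At the unadjusted level, 3.89% of all genes were higher and 4.53% lower in TOL mice. Of 16 mitochondrial translation factors, 0 were higher and 2 lower (12.5%). They were Mtif2, the initiation factor that brings the first tRNA (-0.28, adjusted p = 0.405), and Mtfmt, which formylates that tRNA (-0.15, adjusted p = 0.459). Mtfmt was near background, at 4.27 in TOL mice and 4.42 in INT mice. Of 18 genes listed as mitochondrial tRNA synthetases, which include the amidotransferase subunits Qrsl1, Gatb and Gatc, 0 were higher and 1 lower. The lower one was Wars2 for tryptophan (-0.23), at a dim 4.62 in TOL mice and 4.86 in INT mice. Sars2 for serine was at 0.23 with an unadjusted p of 0.0621 in limma. Of 23 assembly factors, 0 were higher and 1 lower, the RNA helicase Ddx28 (-0.25), and the pseudouridine synthase Rpusd4 was at -0.22 without passing. The 13 genes of mitochondrial DNA transcription and replication (the latter Polg, Polg2, Twnk and Ssbp1) held 0 calls. Among them, Tfb2m, which helps to open the promoter, was at -0.18 and the transcription elongation factor Tefm at -0.22. The 4 mitoribosomal proteins with other names held 0 calls too, with Ptcd3 at 0.20 and Chchd1 at -0.08. The list medians were -0.0037 for translation factors, -0.040 for the synthetase list and -0.026 for assembly factors. They were -0.032 for transcription and replication and -0.062 for the proteins with other names.

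The mRNAs of mitochondrial DNA, which this ribosome translates, were not analysed here, and the nuclear genes for oxidative phosphorylation were used beside the cytosolic ribosomal proteins. At the unadjusted level, 3 of 73 nuclear genes for oxidative phosphorylation were higher and 1 was lower, with a median of 0.0073. Together they made up 5.48% of the list, against 8.41% of all genes. Ndufb10, a complex I subunit, was at 8.85 ± 0.11 in TOL mice and 8.62 ± 0.11 in INT mice, and Atp5c1, of ATP synthase, was at 11.71 ± 0.30 in TOL mice and 12.02 ± 0.13 in INT mice. Of 55 cytosolic ribosomal proteins, 2 were higher and 1 lower (5.45%), with a median of 0.00079. Rps4l (0.25) and Rpl31 (0.21) had the smallest p, and Rps4l was dim at 4.78 in TOL mice and 4.53 in INT mice. None of the 6 general mitochondrial content genes passed at the unadjusted level. Of these, 4 averaged higher in TOL mice and 2 lower. Vdac1, the outer membrane channel, was at 0.12, and the citrate synthase gene Cs was at 0.15. Hspd1 was at 0.18 and Tfam at 0.04, while Ppargc1a was at -0.19 and Timm23 at -0.015.

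**Figure D4:**
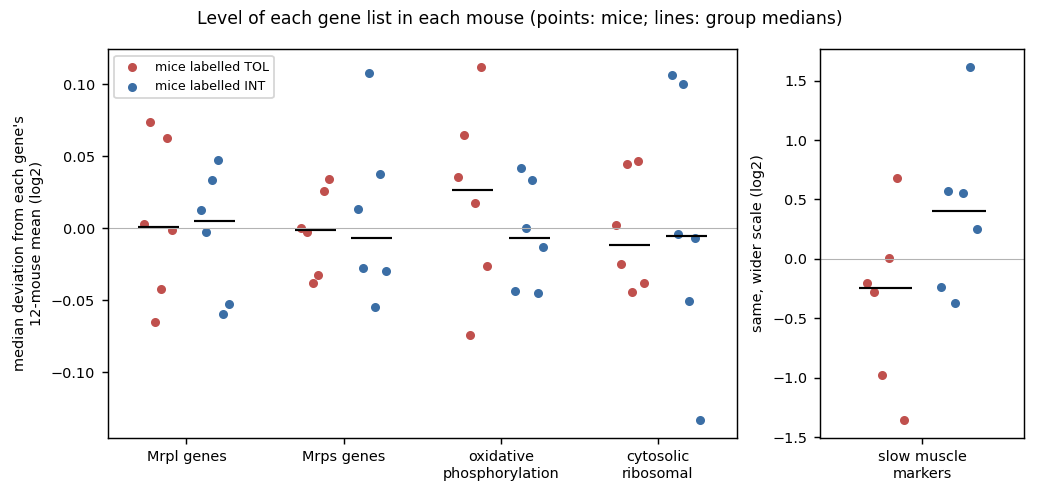
Median deviation of the genes of each list from their means over 12 mice (log2, vertical axis), 1 point a mouse, with TOL mice left of INT mice and lines at the group medians. The Mrpl, Mrps, oxidative phosphorylation and cytosolic ribosomal lists overlap between labels, and slow muscle markers, on a wider scale at the right, run from -1.35 to 0.68 in TOL mice and from -0.37 to 1.61 in INT mice.

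For markers of slow fibres the averages differed between labels, but no gene passed after adjustment and the mice overlapped. All 6 averaged lower in TOL mice, and 5 of 6 had an unadjusted p of 0.05 or less, where 8.41% of all genes did. Their median difference was -0.81 and their smallest adjusted p was 0.401 in limma. Their summed linear intensity was 2295 to 10802 in TOL mice (median 6295) and 5972 to 21913 in INT mice (median 9348). Every one of the 6 passed the detection rule, but 2 were dim in TOL mice. They were Myh7 (4.38 in TOL mice and 4.94 in INT mice) and Tnni1 (4.71 in TOL mice and 5.12 in INT mice). The calcium pump gene Atp2a2 was at 9.70 ± 0.75 in TOL mice and 10.55 ± 0.76 in INT mice, and slow troponin Tnnc1 was at 9.53 ± 1.28 in TOL mice and 10.79 ± 0.96 in INT mice. TOL 11 had the lowest slow muscle level (-1.35) and INT 9 the highest (1.61), and in these mice the Mrpl level was -0.0016 and -0.059. Smooth muscle markers averaged lower in TOL mice for 4 of 4 genes, and 2 passed before adjustment (Rgs5 at -0.31 and Acta2 at -0.43). Their smallest adjusted p was 0.335 in limma. Their summed intensity was 695 to 1578 in TOL mice and 1269 to 2063 in INT mice. The part of either cell type in the differences of single members was not tested.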

How the data were processed

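The authors scanned the arrays and read them with GenomeStudio (no version was given in the sources used here). The authors' deposited table holds, for 45281 probes and 12 arrays, the signal intensity on a linear scale with no normalization, and a detection p-value. A second deposited table of processed intensity values, was an alternative only. The methods name Partek Genomics Suite with RMA for the statistics, and no source used here says what made this table. From the signals, limma 3.58.1 in R 4.3.3 (neqc, offset 16, quantile normalization, log2) gave the levels. Probes detected (p under 0.05) on 6 or more of the 12 arrays were tested with lmFit and trended eBayes, without covariates, and adjusted by Benjamini-Hochberg over 15570 probes. A gene's value is its brightest tested probe. Exact permutation tests were two-sided, and the smallest p they can give is 0.00216. The mice are the replicates, and their number limits the precision. The annotation gave 1 symbol for 34885 probes, several for 18 and none for 10378, and the last 2 kinds were left unnamed. The limma fit was tested on simulated normal values built on the normalized and filtered levels. That test did not cover the normalization or the detection filter.

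The members and lists were chosen with earlier results of these data known. Genes named are members at an unadjusted p of 0.05 or less or with the smallest p (up to 6 in each subunit), the 3 with the largest within-group SD in each subunit, genes chosen by role, those at the edge of detection, those whose probes disagree, and the 2 with the smallest p in each list. Mrpl37, Mrpl46, Mrpl57, Mrps17, Mrps31, Ndufb5, Myh7, Tnni1 and the other mitochondrial content genes were named after their values were seen. Slc5a3 and the other overlapping genes were named for their position, and the amidotransferase and replication genes for their function. Motif windows and positions came from RefSeq tables (GRCm38.p6). Alternatives changed the background, offset, scaling, table, filter, array weights, trend, test, replicate block and probe choice, or left out each mouse. The markers of adipocytes, fibroblasts and tendon, macrophages, neutrophils, endothelium, Schwann cells and erythrocytes were also measured. Of their genes tested, 1 had an unadjusted p of 0.05 or less (Dcn, a matrix proteoglycan, at 0.26), where 8.41% of all genes did. Dcn was 1 of 5 fibroblast and tendon genes tested. Lymphocyte markers did not pass the detection rule.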

Additional observations from a re-analysis of the deposited data

Results flagged for a closer look

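In 5 of the 60 groups of 6 mice examined among the named genes and subunit levels, 1 mouse stood apart from the others by Dixon's 95% value. Chance flags about 1 in 20 groups. Mrpl12 in TOL 5 was at a log2 intensity of 9.50, where the other TOL mice were between 9.77 and 9.85. Mrpl30 in TOL 7 was at 9.60, where the others were between 10.11 and 10.37. Mrps30 in TOL 5 was at 9.46, where the others were between 9.02 and 9.16. Mrpl11 in INT 3 was at 7.07, where the other INT mice were between 7.56 and 7.73. Mrpl9 in INT 3 was at 7.25, where the others were between 7.70 and 7.95.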

How the results depend on the processing

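The count of members at an adjusted p under 0.05 was 0 in limma and in all alternatives, with counts at an unadjusted p of 2 to 8. The count at an unadjusted p of 0.05 or less, 5, ran from 2 (2.78% of members, without TOL 9 or without TOL 11, against 6.79% and 7.26% of all genes) to 8 (11.1%, without TOL 7, against 8.87% of all genes) when mice were left out. Mrpl52 and Mrps18c kept an unadjusted p of 0.05 or less without each mouse in turn. Median scaling moved the subunit medians to -0.075 (large) and -0.098 (small), beside -0.079 for all genes, and gave 1 member higher and 6 lower (9.72% of members, against 11.7% of all genes), and the cause was not tested. Leaving out mice gave medians of -0.0023 to 0.040 for the large and 0.0011 to 0.032 for the small subunit. Signs turned under median scaling for Mrpl1 (-0.12), Mrps18a (-0.026), Mrps27 (-0.059) and Mrps28 (-0.027), with array weights for Mrps27 (-0.031), and with the mean over probes for Mrpl1 (-0.042), Mrpl10 (0.038), Mrpl49 (0.099) and Mrps25 (0.074). Leaving out mice turned Mrpl1 (-0.086 to 0.093), Mrpl30 (-0.138 to 0.051), Mrps12 (-0.068 to 0.060), Mrps27 (-0.075 to 0.115) and Mrps35 (-0.104 to 0.078). Mouse numbers occur in both groups, but same-numbered mice deviated together with correlations of only -0.0072 to 0.148, and no mouse correlated best with its own number. With the replicate block the unadjusted count was 5, the adjusted count 0 and the medians 0.016 (large) and 0.0034 (small). Dim probes near background limit Mrpl39, Mrpl57, the dimmer Mrpl49 and Mrps25 probes, Mtfmt, Wars2, Rps4l, Myh7, Tnni1 and the genes not passing the detection rule.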
